A study of Homo sapiens with 15 samples.

Results

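The 10 genes described here encode chaperones and proteases that act inside mitochondria: HSPD1, HSPE1, HSPA9, GRPEL1, DNAJA3, TRAP1, LONP1, CLPP, CLPX and YME1L1. They were chosen by name as a protein quality control set of the matrix and inner membrane and were matched to Ensembl gene IDs, with 10 of 10 found among the 58395 genes of the count table. All 10 passed the filter on low counts, which kept 16889 genes. H1299, a cell line established from a human non-small cell lung carcinoma, had been kept for 12 h in RPMI 1640 without serum. The 5 media held glucose (5 mM) with glutamine (4 mM), glucose (5 mM) with NH4Cl (4 mM, an ammonium salt), glutamine alone (4 mM), glucose alone (5 mM), or neither nutrient. Poly(A) RNA was sequenced in 3 libraries per medium, 15 in all. The labels speak of triplicate cells of this line and name no day or batch, so the p-values rest on the spread among these samples alone, and that spread may be technical.

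Most mitochondrial proteins are made in the cytosol, imported unfolded, and folded in the matrix by the HSP70 protein that HSPA9 encodes and by the chaperonin ring and lid that HSPD1 and HSPE1 encode. Proteins that fail to fold are degraded by ATP-dependent proteases such as LONP1 and the CLPX and CLPP complex in the matrix, and YME1L1 in the inner membrane. In mammalian cells, genes of this set are known to respond to stress inside mitochondria, to heat shock signalling, and to the amino acid stress factor ATF4 and its relatives.

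Libraries held 14914127 to 19938691 counts, so that 3 counts corresponded to 0.15 to 0.201 CPM of the library total, before the scaling described next. Levels below are CPM, counts relative to the library total after TMM scaling, which sets the bulk of genes level between libraries. The spread of libraries within a medium exceeded counting error, with chi-square divided by its degrees of freedom at 1.231 to 2.462. The TMM factors were 0.793 to 0.794 with neither nutrient and 1.006 to 1.086 in the other media. The 10 most abundant genes took 12.3% to 12.4% of counts with neither nutrient and 5.54% to 7.09% elsewhere. Every comparison with the medium without nutrients therefore depends on this scaling. Of 5 genes listed for an epithelial or carcinoma line, KRT8 (154 to 578 CPM), KRT18 (288 to 679 CPM) and VIM (1813 to 2683 CPM) were abundant. Their summed level ran from 2260 to 3890 CPM and was highest with neither nutrient. VIM made up most of this sum and is not specific to carcinoma cells. KRT19 had at most 26 counts and EPCAM at most 16 counts, with 0 in 1 library. Summed leukocyte, fibroblast and endothelial markers stayed at or below 2.99 CPM in every library. In these bulk samples, fewer cells of a kind and less RNA per cell cannot be told apart.

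The 10 genes fell into different patterns over the media. HSPD1, HSPE1, GRPEL1, TRAP1 and CLPP were all highest with neither nutrient, by 1.77 times (CLPP) to 6.82 times (HSPE1) over their lowest medium. HSPA9 and LONP1 were lowest with both nutrients and higher in each medium that lacked a nutrient, with ratios of highest to lowest medium of 2.83 and 2.04. DNAJA3 was lowest with both and highest with neither, with a ratio of 1.68. CLPX and YME1L1 varied least, with ratios of 1.21 and 1.27. All these ratios are those after TMM scaling, and the places of DNAJA3, CLPX and YME1L1 depended on it. With library totals alone DNAJA3 was higher in glucose alone than with neither, by a log2 change of 0.15. CLPX (0.34, 0.33 and 0.17) and YME1L1 (0.44, 0.12 and 0.11) were then higher in glucose alone, glutamine alone and both nutrients than with neither. Replicates agreed closely: the largest SD of a medium was 6.35% of its mean, for HSPE1. This gene had the lowest count of the 10 in any library (391), though it reached 2357 in another.

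**Figure D1:**
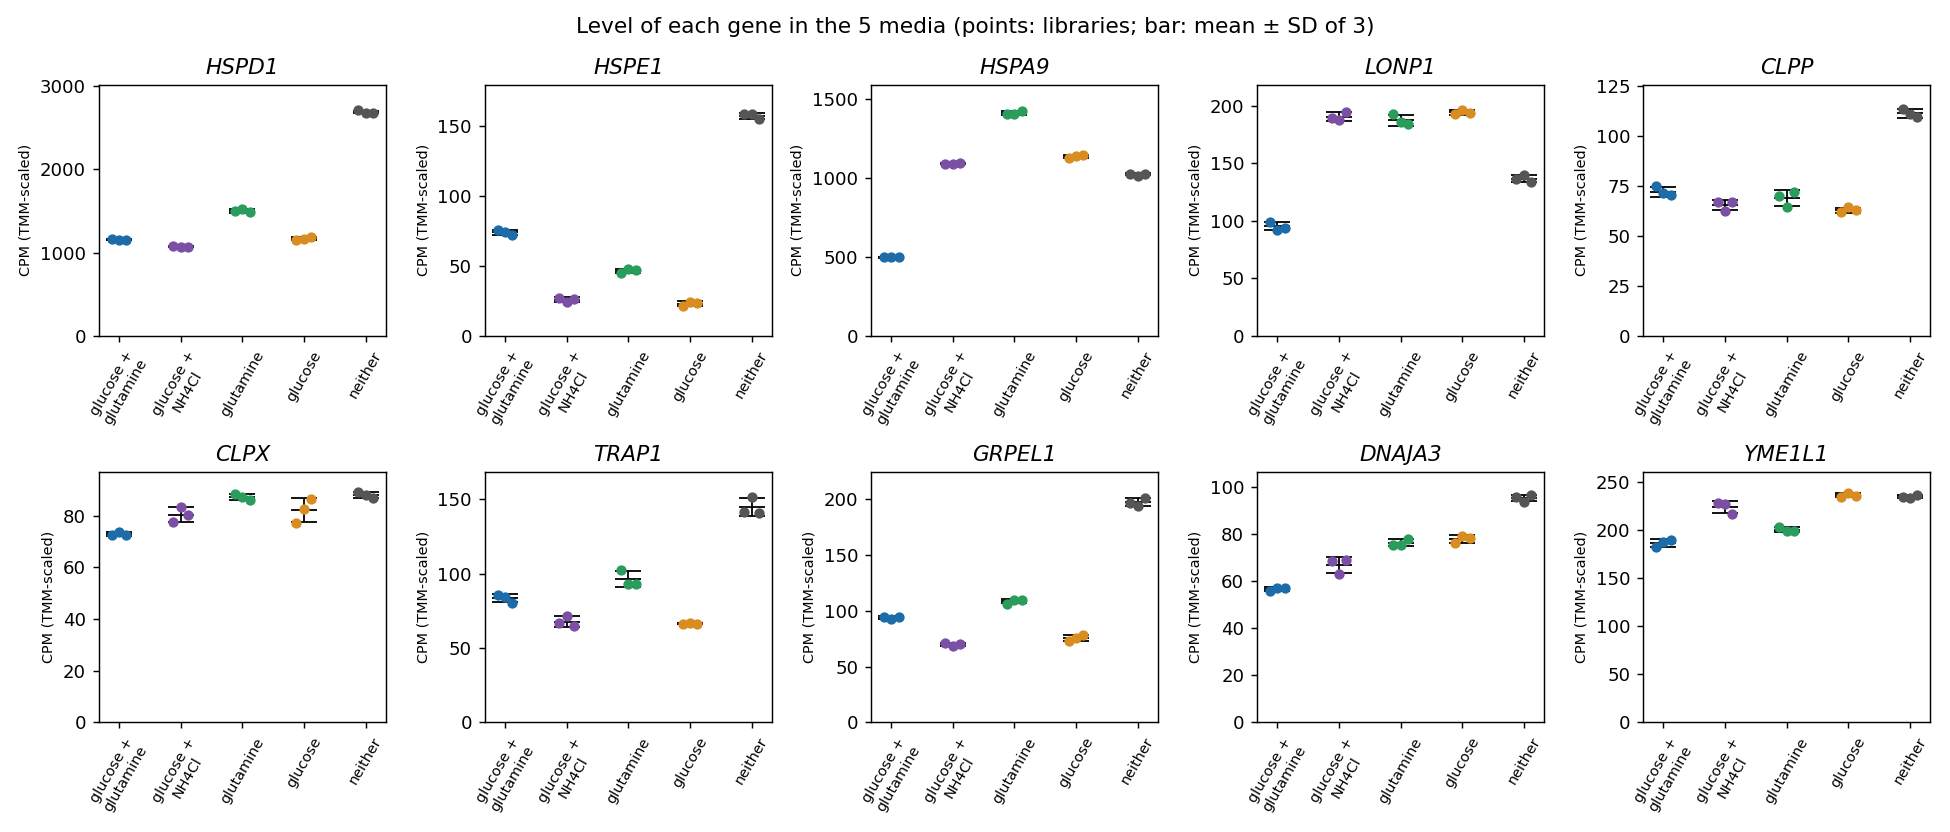
Level of each of the 10 genes in CPM after TMM scaling (vertical axes, each from 0) in the 5 media (horizontal axes), with a point per library and bars for the mean ± SD of 3 libraries. HSPD1 lies between 1067 and 1526 CPM in the 12 libraries with a nutrient and at 2678 to 2708 CPM with neither, while HSPA9 lies at 495 to 500.2 CPM with both nutrients and at 1013 to 1422 CPM in every other library.

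Compared per kilobase of the principal transcript, HSPD1 ranked first of the 10 genes in every medium, from 436 CPM per kb with glucose and NH4Cl to 1095 CPM per kb with neither. HSPA9 ranked second in every medium, with 105 CPM per kb where both nutrients were present and 298 CPM per kb in glutamine alone. CLPX ranked last in every medium by this length, at 15.5 to 18.7 CPM per kb. HSPE1 moved most in rank, from rank 3 with both nutrients and with neither to rank 9 in glucose alone. By the length of all annotated exons DNAJA3 ranked last in every medium and CLPX ranked 7 or 9, so the ranks below HSPD1 and HSPA9 depended on the length used.

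HSPD1 (ENSG00000144381, chromosome 2, 197486581 to 197516737, GRCh38) encodes the subunit of the chaperonin ring. Its libraries read 1162, 1146 and 1151 CPM with both nutrients, 1073, 1069 and 1067 CPM with glucose and NH4Cl, and 1493, 1526 and 1482 CPM in glutamine alone. They read 1156, 1160 and 1187 CPM in glucose alone and 2708, 2680 and 2678 CPM with neither nutrient. The medium without nutrients thus stood clear above all others, glutamine alone came next, and the libraries with both nutrients and with glucose alone overlapped. Adding glutamine to glucose did not change HSPD1 beyond the spread, with a log2 change of -0.02 and a 95% interval of -0.05 to 0.02. Adding glucose to glutamine lowered it by a log2 change of -0.38 ± 0.016 (SE). Against neither nutrient it was lower by -1.20 ± 0.016 in glucose alone, -0.84 ± 0.016 in glutamine alone and -1.22 ± 0.016 with both (Benjamini-Hochberg adjusted p = 6.63e-137 for both nutrients, edgeR quasi-likelihood test).

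HSPE1 (ENSG00000115541, chromosome 2, 197499994 to 197503457, GRCh38) encodes the lid that closes the chaperonin chamber. Its libraries read 75.3, 74.0 and 72.2 CPM with both nutrients, 27.1, 23.9 and 26.2 CPM with glucose and NH4Cl, and 45.0, 47.5 and 46.9 CPM in glutamine alone. They read 21.5, 24.4 and 23.2 CPM in glucose alone and 158, 158 and 155 CPM with neither nutrient. The libraries of glucose with and without NH4Cl overlapped at the bottom, the other media were each separate, and the medium with neither was highest. Unlike HSPD1, HSPE1 rose when glutamine was added to glucose, by a log2 change of 1.68 ± 0.047 or 3.21-fold (adjusted p = 9.49e-83, edgeR quasi-likelihood test, Benjamini-Hochberg). It also rose when glucose was added to glutamine (0.67 ± 0.041). Against neither nutrient it fell by 2.77 on the log2 scale in glucose alone, the largest change of any of the 10 genes in these comparisons of media, by 1.76 in glutamine alone and by 1.09 with both.

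Counts of HSPE1 are less certain than those of the other genes. Of the 950 bases of its principal transcript, 281 overlap HSPD1 on the opposite strand and 192 overlap the readthrough gene HSPE1-MOB4 on the same strand, which leaves 477 bases of its own. HSPE1-MOB4 itself had 0 to 12 counts per library. The 26 annotated pseudogenes of HSPE1 summed to 6.21% to 8.95% of its counts, against 2.64% to 3.08% for the 17 pseudogenes of HSPD1. The sources used here do not say how reads on the opposite strand or with several matches were counted.

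HSPD1 and HSPE1 lie head to head, and their promoter windows are shown because the responses of the pair to added glutamine differed in size. Whether the windows bear on these responses was not tested. Windows ran from 250 bases before to 50 bases after a start site, and came from RefSeq for GRCh38.p14. The outer HSPD1 start site lies 105 bases from the HSPE1 start site, and the windows of this pair share 204 bases read on opposite strands. The other HSPD1 start site lies 539 bases from the HSPE1 start site. Its window, at chr2:197499791-197500090 on the minus strand, holds near its 5′ end a run of GAA and TTC units of the heat shock element kind, marked in capitals. The HSPE1 window, at chr2:197500129-197500428 on the plus strand, holds none of the motifs searched. The run lies between the other HSPD1 start site and the HSPE1 start site, upstream of both, and the HSPE1 window begins beyond it. The windows therefore do not show that HSPE1 lacks such a run nearby.
HSPD1 window: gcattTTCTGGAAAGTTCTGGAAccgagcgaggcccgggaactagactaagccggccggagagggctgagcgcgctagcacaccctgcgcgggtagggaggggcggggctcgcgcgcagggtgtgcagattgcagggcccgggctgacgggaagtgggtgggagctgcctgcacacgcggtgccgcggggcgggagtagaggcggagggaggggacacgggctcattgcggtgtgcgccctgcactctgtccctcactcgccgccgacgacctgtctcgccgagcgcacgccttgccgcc
HSPE1 window: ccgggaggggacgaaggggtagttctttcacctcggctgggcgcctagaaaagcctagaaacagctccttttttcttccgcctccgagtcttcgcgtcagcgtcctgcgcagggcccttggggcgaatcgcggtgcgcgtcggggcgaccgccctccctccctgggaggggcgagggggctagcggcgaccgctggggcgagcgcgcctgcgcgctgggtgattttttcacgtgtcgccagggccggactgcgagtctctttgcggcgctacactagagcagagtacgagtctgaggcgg
The motifs searched on both strands were GAANNTTC and TTCNNGAA, the paired units of heat shock elements, TGATGNAA, the core of elements bound by ATF4 and C/EBP factors, and TGACGTCA, the cyclic AMP response element. In the HSPD1 window TTCTGGAA starts 245 and 235 bases before the start site, and GAAAGTTC, which overlaps both, starts 240 bases before it. Among 35116 RefSeq windows of the same length, 6.77% held GAANNTTC, 7.74% held TTCNNGAA and 1.02% held both. TGATGNAA was found in 3.62% and TGACGTCA in 1.85%. A match describes the letters of the window and not a bound site.

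HSPA9 (ENSG00000113013, chromosome 5, 138553756 to 138575724, GRCh38) encodes the matrix HSP70, which pulls proteins in through the import channel and folds them. Its libraries read 495, 500.2 and 496 CPM with both nutrients, 1086, 1085 and 1094 CPM with glucose and NH4Cl, and 1403, 1400 and 1422 CPM in glutamine alone. They read 1121, 1134 and 1145 CPM in glucose alone and 1024, 1013 and 1024 CPM with neither nutrient. No media overlapped, and the level with both nutrients lay far below the other 4. Adding glutamine to glucose lowered HSPA9 by a log2 change of -1.19 ± 0.018, or 2.28-fold (adjusted p = 1.83e-128, edgeR quasi-likelihood test, Benjamini-Hochberg). Adding glucose to glutamine lowered it by -1.50 ± 0.018, or 2.83-fold. Either nutrient alone left it above the medium with neither, by 0.46 ± 0.017 for glutamine and 0.15 ± 0.017 for glucose, the second being called but not against a 1.2-fold change. Both nutrients together lowered it by -1.04 ± 0.018 against neither.

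GRPEL1 (ENSG00000109519, chromosome 4, 7058906 to 7068197, GRCh38) encodes the nucleotide exchange factor that resets HSPA9 between cycles. Its libraries read 94.3, 92.4 and 94.7 CPM with both nutrients, 70.7, 68.0 and 70.3 CPM with glucose and NH4Cl, and 106, 109.7 and 109 CPM in glutamine alone. They read 73.0, 75.8 and 78.4 CPM in glucose alone and 196, 194 and 201 CPM with neither. No media overlapped, and the order of media was that of HSPD1 except that both nutrients and glucose alone changed places. GRPEL1 rose when glutamine was added to glucose (0.31 ± 0.034, not called against a 1.2-fold change) and fell by 0.21 when glucose was added to glutamine. Against neither nutrient it fell by 1.38 in glucose alone, by 0.86 in glutamine alone and by 1.07 with both nutrients, all on the log2 scale.

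DNAJA3 (ENSG00000103423, chromosome 16, 4425805 to 4456775, GRCh38) encodes a J-domain cochaperone that starts the ATP cycle of HSPA9. It averaged 56.8 ± 0.73 CPM with both nutrients, 66.9 ± 3.4 CPM with glucose and NH4Cl, 76.4 ± 1.4 CPM in glutamine alone, 78.0 ± 1.7 CPM in glucose alone and 95.4 ± 1.3 CPM with neither (SD, n = 3 each). Libraries of glutamine alone and glucose alone overlapped, and the other media were separate. It fell both when glutamine was added to glucose (-0.46 ± 0.038) and when glucose was added to glutamine (-0.43 ± 0.038). Against neither nutrient it was lower by -0.29 ± 0.036 in glucose alone and -0.32 ± 0.036 in glutamine alone, but with library totals alone these became 0.15 and 0.02.

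TRAP1 (ENSG00000126602, chromosome 16, 3651639 to 3717597, GRCh38) encodes the mitochondrial relative of HSP90. It averaged 83.6 ± 2.6 CPM with both nutrients, 67.8 ± 3.5 CPM with glucose and NH4Cl, 96.3 ± 5.4 CPM in glutamine alone, 66.4 ± 0.18 CPM in glucose alone and 145 ± 6.1 CPM with neither (SD, n = 3 each). It rose when glutamine was added to glucose (0.33 ± 0.037) and fell by 1.12 in glucose alone, by 0.59 in glutamine alone and by 0.79 with both nutrients against neither. Of the 2296 bases of its principal transcript, 866 overlap DNASE1 on the opposite strand, which had 64 to 664 counts per library against 1046 to 2106 for TRAP1. The sources used here do not say whether reads of the pair were told apart by strand.

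The promoter windows of HSPA9 and TRAP1 are shown because each holds 1 of the motifs, in capitals. Of all RefSeq windows searched, 7.74% held TTCNNGAA and 1.85% TGACGTCA. Whether these matches bear on the levels of the genes was not tested. The HSPA9 window lies at chr5:138575352-138575651 on the minus strand and the TRAP1 window at chr16:3717475-3717774 on the minus strand (RefSeq, GRCh38.p14).
HSPA9 window: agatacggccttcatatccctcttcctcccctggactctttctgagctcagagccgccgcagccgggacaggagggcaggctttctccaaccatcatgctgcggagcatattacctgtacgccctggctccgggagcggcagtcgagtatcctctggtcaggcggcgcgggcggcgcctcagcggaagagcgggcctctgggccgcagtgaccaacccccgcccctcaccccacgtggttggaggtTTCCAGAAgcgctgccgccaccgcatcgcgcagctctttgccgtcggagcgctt
TRAP1 window: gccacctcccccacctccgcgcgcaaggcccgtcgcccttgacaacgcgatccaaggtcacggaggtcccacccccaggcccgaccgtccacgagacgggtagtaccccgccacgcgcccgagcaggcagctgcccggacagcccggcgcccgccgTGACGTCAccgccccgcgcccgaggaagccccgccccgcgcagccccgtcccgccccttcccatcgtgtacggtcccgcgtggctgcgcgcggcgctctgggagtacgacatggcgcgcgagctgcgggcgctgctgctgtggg
In the HSPA9 window TTCCAGAA, a TTCNNGAA match, starts 4 bases before the start site, and in the TRAP1 window TGACGTCA starts 94 bases before it. The windows of HSPE1, LONP1, CLPX and DNAJA3 and the HSPD1 window nearest to HSPE1 held none of the 4 motifs, and TGATGNAA was in no window of these genes. No windows were used for CLPP, GRPEL1 and YME1L1.

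LONP1 (ENSG00000196365, chromosome 19, 5691834 to 5720572, GRCh38) encodes the main ATP-dependent protease of the matrix, which degrades oxidised and misfolded proteins. Its libraries read 99.2, 92.4 and 94.1 CPM with both nutrients, 189.5, 188 and 195 CPM with glucose and NH4Cl, and 193, 186 and 184 CPM in glutamine alone. They read 193, 197 and 194 CPM in glucose alone and 137, 140.1 and 134 CPM with neither. The 3 media with either glucose or glutamine overlapped each other, neither nutrient lay below them, and both nutrients lay lowest. Adding glutamine to glucose lowered LONP1 by a log2 change of -1.03 ± 0.030, or 2.04-fold (adjusted p = 3.24e-80, edgeR quasi-likelihood test, Benjamini-Hochberg), and adding glucose to glutamine lowered it by -0.98 ± 0.030. Against neither nutrient it rose in glucose alone (0.51 ± 0.030) and in glutamine alone (0.46 ± 0.030) and fell with both (-0.52 ± 0.032). The sizes of these changes depended on TMM scaling. Without TMM factors the typical gene read higher against neither, by 0.436 in glucose alone, 0.344 in glutamine alone and 0.443 with both. The last shift is nearly as large as the fall of LONP1, which kept its direction and its call but not its size. Glutamine alone and glucose alone differed by -0.05, with a 95% interval of -0.11 to 0.01, and were called different without glutamine replicate 1 (-0.07).

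CLPP (ENSG00000125656, chromosome 19, 6361452 to 6368910, GRCh38) encodes the proteolytic chamber of the CLPX and CLPP complex. It averaged 72.2 ± 2.4 CPM with both nutrients, 65.4 ± 2.6 CPM with glucose and NH4Cl, 69.0 ± 3.9 CPM in glutamine alone, 63.0 ± 1.2 CPM in glucose alone and 112 ± 2.2 CPM with neither (SD, n = 3 each). The 4 media with a nutrient formed a chain in which each neighbour in level overlapped the next, and the medium with neither stood clear above them. CLPP fell by 0.83 in glucose alone, by 0.70 in glutamine alone and by 0.63 with both nutrients against neither, on the log2 scale. Its rise of 0.20 ± 0.038 with glutamine added to glucose did not pass against a 1.2-fold change.

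CLPX (ENSG00000166855, chromosome 15, 65148219 to 65185342, GRCh38) encodes the ATPase that unfolds proteins and feeds them to CLPP. It averaged 73.0 ± 0.67 CPM with both nutrients, 80.3 ± 2.9 CPM with glucose and NH4Cl, 87.2 ± 1.2 CPM in glutamine alone, 82.1 ± 4.6 CPM in glucose alone and 87.9 ± 1.0 CPM with neither (SD, n = 3 each). Only the medium with both nutrients was separate from its neighbour in the order. CLPX fell by 0.17 when glutamine was added to glucose and by 0.26 when glucose was added to glutamine, neither of which was called against a 1.2-fold change. Its difference between both nutrients and neither was -0.27 ± 0.037, but 0.17 with library totals alone. Glutamine alone did not differ from neither beyond the spread, with a log2 change of -0.01 and a 95% interval of -0.09 to 0.07, a value that was 0.33 with library totals alone.

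YME1L1 (ENSG00000136758, chromosome 10, 27110112 to 27155266, GRCh38) encodes an inner membrane protease that faces the intermembrane space and processes the fusion protein OPA1. It averaged 187 ± 3.8 CPM with both nutrients, 224 ± 6.3 CPM with glucose and NH4Cl, 201 ± 2.5 CPM in glutamine alone, 237 ± 2.1 CPM in glucose alone and 235 ± 1.8 CPM with neither (SD, n = 3 each). Glucose alone and neither overlapped, at a log2 change of 0.01 with a 95% interval of -0.05 to 0.07, while the other media were separate. The value was 0.44 with library totals alone. YME1L1 fell by 0.34 when glutamine was added to glucose and by 0.33 with both nutrients against neither, although the second value was 0.11 with library totals alone. In glutamine alone against neither it was -0.23, and 0.12 with library totals alone, called both ways. It was lower in glutamine alone than in glucose alone (-0.24 ± 0.026). LONP1 was also called lower there with library totals alone (-0.14), with the compared media alone (-0.06) and without glutamine replicate 1 (-0.07), and DNAJA3 with library totals alone (-0.12).

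Set against all genes, the number of these genes that passed the test says little, because most genes changed. With glutamine added to glucose 4 of the 10 rose and 5 fell at an adjusted p under 0.05, where 67.9% of the 16889 genes tested were called. Against a 1.2-fold change 2 rose (HSPE1 and TRAP1) and 4 fell (HSPA9, LONP1, DNAJA3 and YME1L1), where 43.9% of all genes were called. With glucose added to glutamine 1 rose and 8 fell (65.6% of all genes called), and against a 1.2-fold change 1 rose and 4 fell (38.4%). With library totals alone 2 rose and 7 fell here, as CLPP (0.17) gained a call and YME1L1 (-0.0045) lost its own. In glutamine alone set against glucose alone 7 were higher and 1 was lower (66.5% of all genes called), with 5 higher and 0 lower against a 1.2-fold change (39.6%). Of the 7, CLPX (0.09) was not called without glucose replicate 1 (0.05) or glutamine replicate 1 (0.08). With library totals alone the split in this comparison became 5 higher and 3 lower, with CLPP (0.04) and CLPX (-0.0024) not called. The median log2 change of the 10 genes was -0.09 for glutamine added to glucose and -0.23 for glucose added to glutamine, beside 0.00465 and -0.00547 over all genes. Size set some members apart more than their number did. The HSPE1 change with added glutamine was at percentile 98.7 of all genes tested, that of HSPA9 at 4.37 and that of LONP1 at 6, while HSPD1 sat at 48.3.

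Against the medium with neither nutrient most of the 10 genes were lower. In glucose alone 2 rose (HSPA9 and LONP1) and 7 fell, where 77.8% of all genes were called, and against a 1.2-fold change 1 rose and 5 fell (62.6%). In glutamine alone 2 rose and 7 fell (72.8% of all genes called), or 2 and 6 against a 1.2-fold change (54.2%). With both nutrients 0 rose and 10 fell (72.3% of all genes called, 35.3% as lower), and 9 fell against a 1.2-fold change (52% of all genes called, 24.5% as lower). The value of CLPX in glucose alone (-0.10) was not called without glucose replicate 1 (-0.06), and with library totals alone it was 0.34 and called the other way. With library totals alone the split became 5 higher and 5 lower in glucose alone, 4 and 5 in glutamine alone, and 2 and 8 with both nutrients. That scaling moved the median of all genes by 0.44 for glucose alone, 0.34 for glutamine alone and 0.44 for both nutrients. HSPD1, HSPE1, GRPEL1, TRAP1 and CLPP stayed lower in all 3 comparisons under every alternative. These 3 comparisons share the 3 libraries without nutrients and are not independent of each other.

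**Figure D2:**
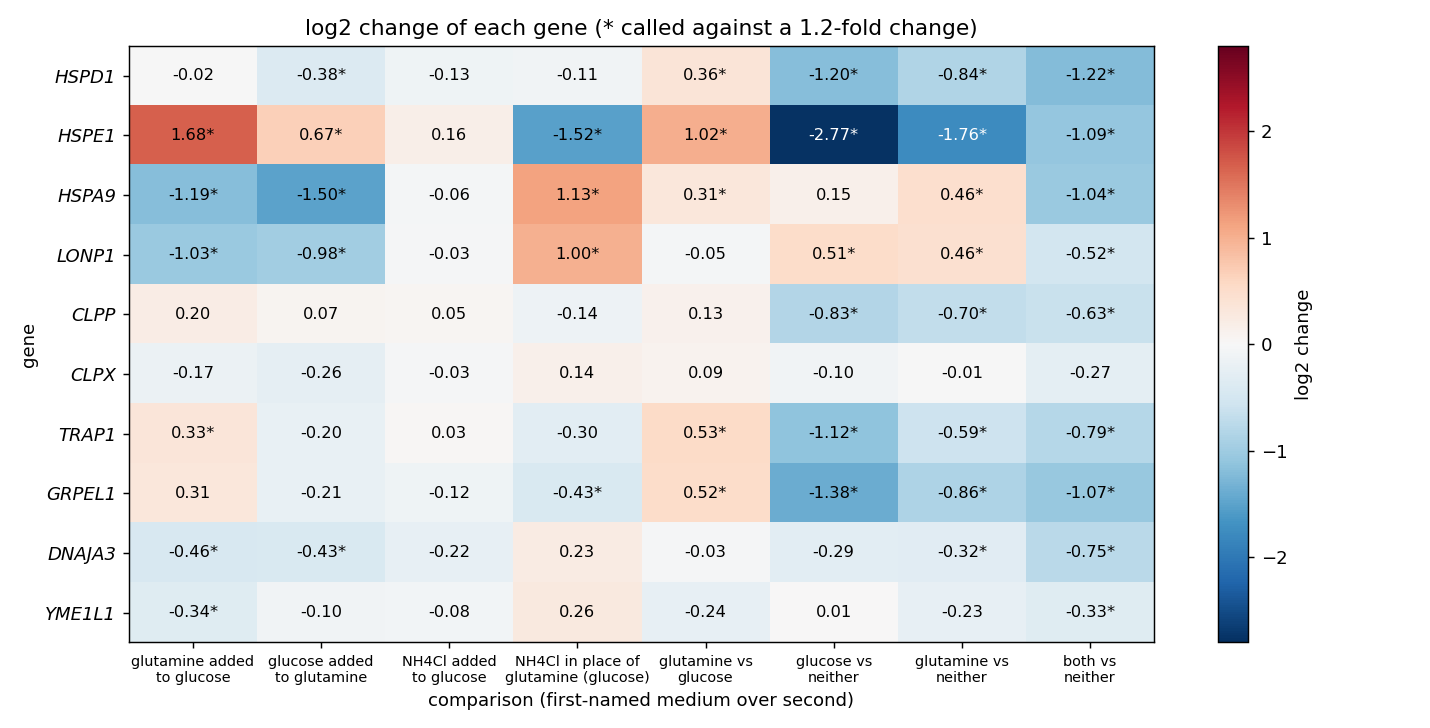
Log2 change of each of the 10 genes (rows) in 8 comparisons of media (columns, first-named medium over the second), coloured by size and direction, with an asterisk where the change was called against a 1.2-fold change. HSPE1 runs from -2.77 in glucose against neither to 1.68 for glutamine added to glucose, HSPA9 and LONP1 are below 0 wherever the second nutrient was added, and the columns against neither shift upward by 0.34 to 0.44 under library totals alone, which turns the small values of CLPX, DNAJA3 and YME1L1.

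NH4Cl supplies ammonium, which glutamine also releases when it is broken down, and its addition to glucose asks whether ammonium acts as glutamine does. NH4Cl moved these genes little. At an adjusted p under 0.05 (edgeR quasi-likelihood test, Benjamini-Hochberg) 1 rose and 5 fell, where 29.6% of all genes were called, and 0 were called against a 1.2-fold change (2.63% of all genes), with 6 at an unadjusted p under 0.05 and 4 called by the Wald test of DESeq2. The log2 changes ran from -0.22 for DNAJA3 to 0.16 for HSPE1. HSPD1 was among those that fell, at 1156 to 1187 CPM in glucose alone and 1067 to 1073 CPM with NH4Cl. HSPA9 changed by -0.06 ± 0.017 and LONP1 by -0.03, with a 95% interval of -0.09 to 0.03. The rise of HSPE1 (adjusted p = 0.0278, libraries overlapping) was not called without NH4Cl replicate 1 (0.12) or 3 (0.15) or glucose replicate 1 (0.11), nor by DESeq2. The fall of GRPEL1 (-0.12) was not called without glucose replicate 3 (-0.09), and that of YME1L1 (-0.08) not without NH4Cl replicate 3 (-0.05). YME1L1 was also not called by DESeq2 (-0.07) or with the compared media alone (-0.06). Without a low-count filter HSPA9 (-0.04), GRPEL1 (-0.10) and YME1L1 (-0.05) were not called.

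With NH4Cl in place of glutamine, both in glucose medium, 5 of the 10 genes were higher and 5 lower, where 64.6% of all genes were called. Against a 1.2-fold change HSPA9 (1.13 ± 0.018) and LONP1 (1.00 ± 0.030) were higher and HSPE1 (-1.52 ± 0.047) and GRPEL1 (-0.43 ± 0.035) lower, where 38% of all genes were called. This comparison shares libraries with the preceding comparisons of glucose media, so its values follow in part from theirs.

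The interaction of the nutrients asks whether glutamine acted differently with glucose present than without it. All 10 genes passed this test, 5 with a positive and 5 with a negative value, where 74.8% of all genes were called, and 7 passed against a 1.2-fold change (63.3% of all genes). For HSPE1 the log2 effect of glutamine was 1.68 with glucose and -1.76 without it, a difference of 3.44 ± 0.060 at percentile 99.6 of all genes (adjusted p = 6.78e-117, edgeR quasi-likelihood test, Benjamini-Hochberg). For HSPA9 it was -1.19 with glucose and 0.46 without it, a difference of -1.65 ± 0.025. LONP1 likewise had -1.03 with glucose and 0.46 without it, a difference of -1.49 ± 0.042. GRPEL1, TRAP1, CLPP and HSPD1 had positive differences of 1.17, 0.92, 0.90 and 0.82. In the first 3 of these glutamine raised the level with glucose and lowered it without glucose. CLPX (-0.16), DNAJA3 (-0.14) and YME1L1 (-0.11) were not called against a 1.2-fold change, and DNAJA3 did not pass without glutamine replicate 3 (-0.11) or glucose replicate 2 (-0.12). Scaled by library totals alone, the all-gene median shifted by -0.34 in this test, and the values became -0.49 for CLPX, -0.47 for DNAJA3, -0.45 for YME1L1 and 0.49 for HSPD1, with all 10 signs kept.

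Genes whose proteins work together did not keep a fixed ratio over the media. The ratio of HSPD1 to HSPE1 CPM, used here to follow the pair between media and not as a ratio of molecules, was 15.6 ± 0.28 with both nutrients, 41.7 ± 2.6 with glucose and NH4Cl, 32.3 ± 0.83 in glutamine alone, 50.9 ± 3.1 in glucose alone and 17.1 ± 0.18 with neither (SD, n = 3 each). It was thus about as low with both nutrients as with neither, although HSPD1 itself was far lower with both. The ratio of HSPA9 to GRPEL1 was 5.30 ± 0.10 with both nutrients, 15.6 ± 0.30 with glucose and NH4Cl, 12.99 ± 0.22 in glutamine alone, 14.98 ± 0.37 in glucose alone and 5.18 ± 0.075 with neither. Here too both nutrients and neither lay next to each other, without overlap, and apart from the 3 media with either glucose or glutamine. The ratio of CLPX to CLPP was 1.01 ± 0.036 with both nutrients, 1.23 to 1.30 on average in the 3 media with either glucose or glutamine, and 0.788 ± 0.0060 with neither. Ratios within a library do not depend on the scaling between libraries.

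**Figure D3:**
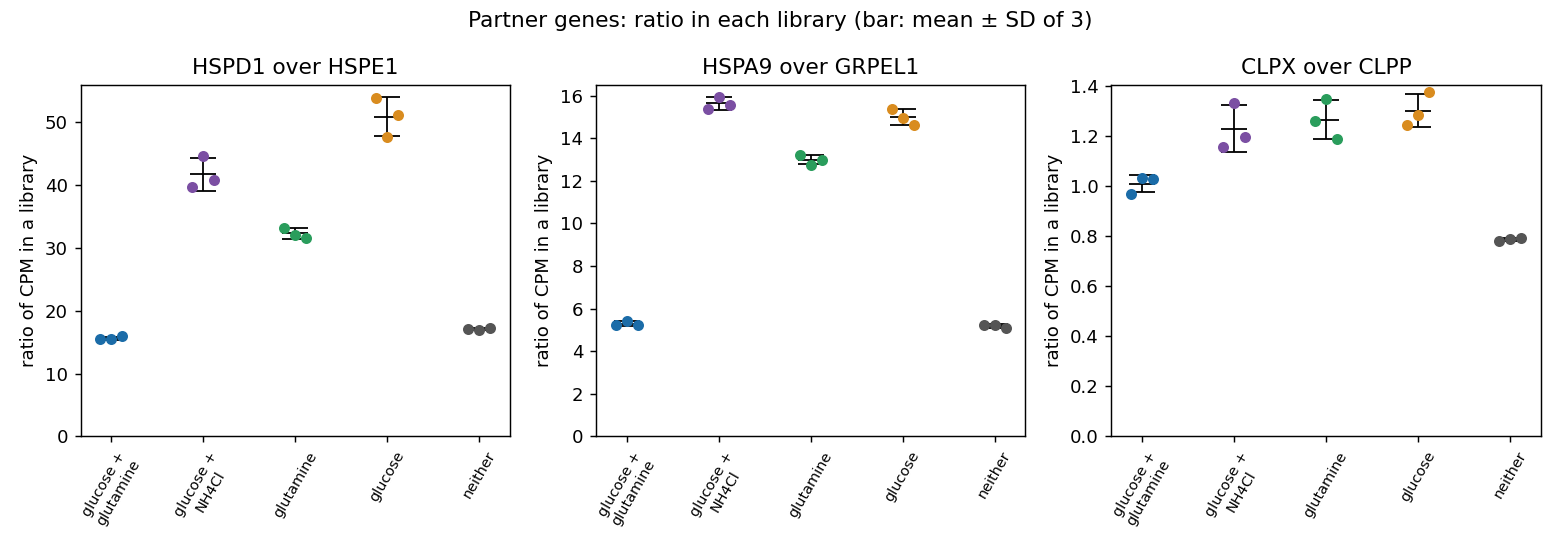
Ratio of CPM within each library (vertical axes, each from 0) for HSPD1 over HSPE1, HSPA9 over GRPEL1 and CLPX over CLPP in the 5 media, with a point per library and bars for the mean ± SD of 3 libraries. HSPD1 over HSPE1 lies at 15.4 to 17.3 with both nutrients and with neither and at 31.6 to 53.8 in the other media, and HSPA9 over GRPEL1 at 5.10 to 5.41 against 12.8 to 16.0.

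Other genes of mitochondrial protein quality control were described from lists chosen by function. Of 8 measured further chaperones and cochaperones 2 rose and 4 fell when glutamine was added to glucose, with a median log2 change of -0.15. Of all genes tested 67.9% were called in this comparison. GRPEL2, the paralog of GRPEL1, averaged 38.9 ± 2.5 CPM with both nutrients, against 76.4 ± 2.2 CPM in glutamine alone and 85.0 ± 0.82 CPM in glucose alone, a log2 change of -1.13 ± 0.041 for added glutamine and -0.97 ± 0.041 for added glucose. It fell with either addition, as HSPA9 did, whereas GRPEL1 had 0.31 and -0.21. Of 16 further proteases 9 rose and 5 fell with added glutamine (median 0.15). PMPCA, a subunit of the peptidase that removes import signals, averaged 119 ± 4.4 CPM with both nutrients and 65.3 ± 2.2 CPM in glucose alone (0.87 ± 0.035). HTRA2, a protease of the intermembrane space, rose by 0.88 ± 0.058. Against neither nutrient 10 of the 16 proteases were called lower in glucose alone and 3 higher (median -0.42), where 77.8% of all genes were called. With library totals alone, which moved the median of all genes by 0.44, 6 were lower and 8 higher (median 0.016).

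The import channels and motor deliver the clients of HSPA9. Of 15 measured genes of this list 9 rose and 2 fell with glutamine added to glucose (median 0.27), where 67.9% of all genes were called. In glucose alone against neither 13 fell and 2 rose (median -0.90, beside 0.05 over all genes), where 77.8% of all genes were called. With library totals alone 9 were lower and 5 higher in the second comparison (median -0.47). TOMM40, the outer membrane pore, averaged 208 ± 2.5 CPM in glucose alone and 716 ± 17 CPM with neither, a log2 change of -1.78 ± 0.023. TIMM44, which tethers HSPA9 to the channel, was among those that fell when glutamine was added to glucose, at 54.8 ± 2.4 CPM with both nutrients and 103 ± 2.5 CPM in glucose alone (-0.91 ± 0.036). Of the 3 scaffold genes of inner membrane proteases, PHB1, PHB2 and STOML2, all fell in glucose alone against neither, also with library totals alone, and PHB1 averaged 126 ± 5.4 CPM in glucose alone and 520.5 ± 9.3 CPM with neither.

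Heat shock genes of the cytosol and regulators of stress responses are given beside these values. All 7 listed cytosolic heat shock genes rose when glutamine was added to glucose (median 1.14) and fell in glucose alone against neither (median -3.59, or -3.15 with library totals alone). Of all genes tested 67.9% were called in the first of these comparisons and 77.8% in the second. Among the 7 heat shock genes, the cochaperone gene DNAJB1 averaged 154 ± 3.1 CPM in glucose alone and 8786 ± 43 CPM with neither. Of 7 regulators 3 rose and 4 fell with added glutamine. ATF4, a transcription factor of the amino acid response, averaged 173 ± 0.96 CPM with both nutrients and 611 ± 11 CPM in glucose alone, a log2 change of -1.82 ± 0.022. CEBPB, a transcription factor of the C/EBP family, fell by 2.99 on the log2 scale, and DDIT3, which encodes CHOP, fell by 4.05. Among the 3 that rose, EIF2AK1 had 0.24 ± 0.027 and HSF1 0.06 ± 0.028. The median of the 7 regulators was -0.22. HSPA5, the HSP70 gene of the endoplasmic reticulum, averaged 568 ± 16 CPM with both nutrients and 6345 ± 22 CPM in glutamine alone, a log2 change of -3.48 ± 0.017 for added glucose, where HSPA9 changed by -1.50. All 5 listed chaperone genes of the endoplasmic reticulum fell with added glucose (median -1.94), where 65.6% of all genes were called. With glutamine added to glucose 3 of the 5 rose, among them CALR (1.31 ± 0.020), and 2 fell, among them HSPA5 (-2.04 ± 0.016). Whether any of these regulators bears on the 10 genes was not tested.

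**Figure D4:**
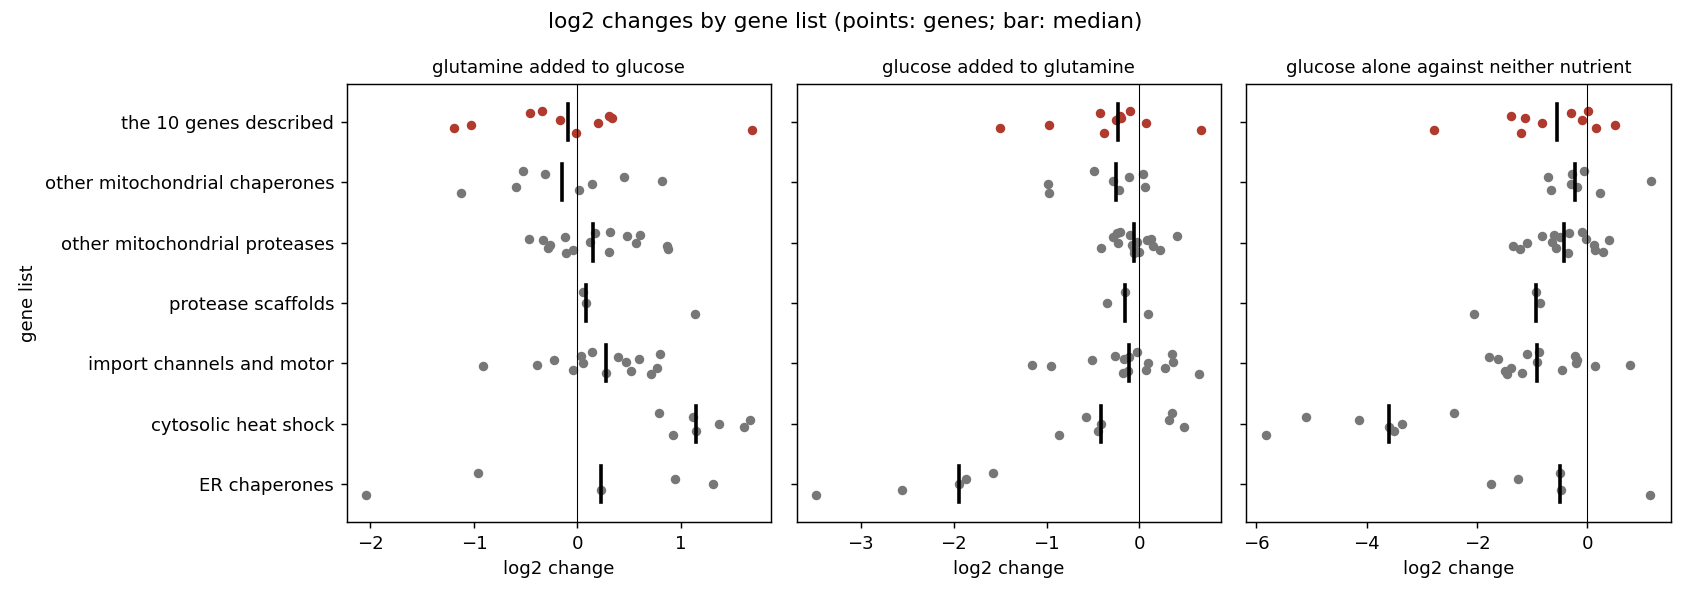
Log2 changes by gene list (rows) for glutamine added to glucose, glucose added to glutamine and glucose alone against neither nutrient (panels), with a point per gene that passed the low-count filter and a bar at the median of the list. The 10 genes spread from -1.19 to 1.68 in the first panel, whereas the 7 cytosolic heat shock genes lie at 0.79 to 1.67 there and at -5.83 to -2.42 for glucose alone against neither.

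The genes with the most similar levels over the 15 libraries differed between members. Likeness was measured by Pearson's r of log2(CPM + 1) over the 9797 genes that averaged 10 CPM or more, and is descriptive, since the libraries form 5 clusters by medium. HSPD1 was closest to SMS (r = 0.996), DNAJB4 (0.995), CCT4 (0.995) and EIF3J (0.994). HSPA9 was closest to XBP1 (0.998), CSNK2A2 (0.992), GHITM (0.992) and FAM83G (0.989). LONP1 was closest to GARS (0.994), PSAT1 (0.992), ZNF496 (0.991) and CEBPB (0.991). YME1L1 was closest to KPNA4 (0.985), MT2A (0.982), ATN1 (0.982) and SINHCAF (0.981). Among the 10 genes the pairs with the highest r were TRAP1 with GRPEL1 (0.982) and HSPD1 with GRPEL1 (0.974). HSPA9 had 0.915 with LONP1, 0.215 with HSPD1 and 0.03 with its exchange factor GRPEL1.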

How the data were processed

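Raw counts per Ensembl gene were deposited by the authors for 15 libraries. The submitters' processing notes list the build GRCh38.p12 and the tools Subread 1.5.1, featureCounts and HISAT2 2.1.0, with no roles; strand and multiple-match settings were not given in these sources. Per the labels' protocols, poly(A) RNA was prepared with a stranded kit. Gene names, positions and overlaps came from GENCODE 29, which lacks 120 of the 58395 IDs. After TMM scaling, edgeR 4.0.16 (R 4.3.3) fitted a mean for each medium to all 15 libraries, with robust estimation, 10 residual degrees of freedom and a common biological coefficient of variation of 0.0221, and its quasi-likelihood test was used on both sides. Genes past filterByExpr (16889) were adjusted by Benjamini-Hochberg and called under 0.05, and again against a 1.2-fold change. SE is the absolute log2 change divided by the square root of the F statistic of this test. The 95% intervals use that SE and a t distribution with 10 degrees of freedom. The test itself also draws on the spread of other genes, so intervals and p-values rest on different degrees of freedom. The members, lists and naming rule were chosen with earlier results of these data known. From each list at most the 3 most abundant genes and the 2 with the largest change in a comparison were named. Alternatives were DESeq2 size factors, library totals, other filters, the Wald test of DESeq2 1.42.0, the compared media alone, a replicate term and leaving out each library. A simulation for glutamine added to glucose drew every library from the means of the glucose libraries, with 16416 genes past the filter in that step. Only the genes given a change differed, with as many raised as lowered. The test called 23 of the 50 genes given a 1.2-fold change, 36 of the 50 given 1.5-fold, 43 of the 50 given 2-fold and 47 of the 50 given 4-fold. It also called 9 of the 16220 unchanged genes past the filter. Of the changed genes 47, 49, 50 and 50 passed the filter. With so few genes changed, it cannot give the error rate where most genes change, as in the real comparison. Among the 15 within-medium pairs of libraries, chi-square divided by its degrees of freedom ran between 1.231 and 2.462, and 0 pairs held identical counts.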

Additional observations from a re-analysis of the deposited data

Results flagged for a closer look

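For each of the 10 genes the effect of glutamine with glucose differed from its effect without glucose, by an interaction term in the fit of all genes (edgeR quasi-likelihood test, Benjamini-Hochberg). The differences, as log2 effect with glucose minus effect without, were 3.44 for HSPE1, 1.17 for GRPEL1, 0.92 for TRAP1, 0.90 for CLPP and 0.82 for HSPD1. They were -1.65 for HSPA9, -1.49 for LONP1, -0.16 for CLPX, -0.14 for DNAJA3 and -0.11 for YME1L1. DNAJA3 lost its call without glutamine replicate 3, without glucose replicate 2 and by DESeq2, and CLPX, DNAJA3 and YME1L1 lost theirs without a low-count filter. Of all genes tested 74.8% passed this test.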

How the results depend on the processing

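Of 2070 alternative values of the 10 genes over the 9 comparisons, 1993 kept their direction and side of the threshold, 53 lost and 7 gained a call, and 17 turned, 5 of them called both ways. Against a 1.2-fold change the genes called numbered 0 for NH4Cl added to glucose (6 otherwise), 4 for NH4Cl in place of glutamine (10), 5 for glucose added to glutamine (9) and 5 for glutamine alone against glucose alone (8). Without a low-count filter 3 were called for NH4Cl added to glucose. Library totals alone turned CLPX (0.34) and DNAJA3 (0.15) in glucose alone against neither, CLPX (0.33), DNAJA3 (0.023) and YME1L1 (0.12) in glutamine alone against neither, CLPX (0.17) and YME1L1 (0.11) with both against neither, and CLPX (-0.0024) in glutamine against glucose. That scaling gave 10145 higher and 3533 lower calls over all genes in glucose alone against neither (6735 and 6401 otherwise), 9531 and 3312 in glutamine alone (6251 and 6048), 10866 and 2405 with both (6245 and 5964), and 4324 and 8497 for the interaction (6214 and 6421, its median moving by -0.34). It gave 6764 and 4359 for glucose added to glutamine (5502 and 5571) and 4566 and 6670 for glutamine against glucose (5650 and 5576). The uncalled value of YME1L1 in glucose alone against neither turned to -0.013 (DESeq2 size factors and the DESeq2 Wald test) and -0.029 (no filter), and ran from -0.0044 to 0.0092 without single libraries, below 0 without glucose replicate 2 (-0.0042) or neither replicate 1 (-0.00092) or 2. CLPX in glutamine against neither became 0.0032 with the compared media alone. For NH4Cl added to glucose, single libraries left out gave TRAP1 from -0.011 (NH4Cl replicate 2) to 0.061 and CLPX from -0.072 to 0.011 (glucose replicate 3). The cause of these turns was not tested beyond the scaling itself.

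Leaving out 1 library at a time gave 9 to 9 calls for glutamine added to glucose, 4 to 6 for NH4Cl added, 10 to 10 for NH4Cl in place of glutamine, 9 to 10 for glucose added to glutamine, 8 to 9 for glucose, 9 to 9 for glutamine and 10 to 10 for both against neither, 7 to 8 for glutamine against glucose, and 9 to 10 for the interaction. CLPP for glucose added to glutamine (0.07) gained a call without glutamine replicate 3 (0.10).

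The residuals gave no sign that equal replicate numbers pair the libraries, which does not show that such libraries were handled apart. Residual correlations had a median of -0.00054 over 30 pairs of equal number and 0.001 over 60 of different number. Of 15 libraries 2 had their highest correlation with an equal number. With a replicate block the counts of these genes called stayed at 9 for glutamine added to glucose, 6 for NH4Cl added, 10 for NH4Cl in place of glutamine, 9 for glucose added to glutamine, 9, 9 and 10 against neither, 8 for glutamine against glucose and 10 for the interaction. Depth limits HSPE1 most, with 391 counts at least.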
